A study of Homo sapiens with 6 samples.

Results

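The clustered replication-dependent histone genes encode the core histones H2A, H2B, H3 and H4 and the linker histone H1, and were taken as every gene whose symbol starts with HIST1, HIST2, HIST3 or HIST4 followed by a histone class. Symbols that end in PS and a digit, which mark pseudogenes, were left out. The rule kept 6 other members that are annotated as pseudogenes, beside 70 annotated as protein coding. The rule found 76 of the 41471 genes in the table of the knockdown experiment and 62 of the 34157 genes in the table of the rebastinib experiment, and all 62 were among the 76. The other 14 were listed only in the knockdown table, where 10 of them had 0 counts in every library and none had more than 2. By class, there were 6 H1, 17 H2A, 23 H2B, 15 H3 and 15 H4 genes, and by cluster 55 belonged to HIST1, 16 to HIST2, 4 to HIST3 and 1 to HIST4.

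RNA-seq libraries were made from MDA-MB-231 cells, a human triple-negative breast cancer cell line. In the knockdown experiment, cells infected with lentivirus carried CDK16-sh1, CDK16-sh2 or, as control, a scramble-shRNA, and all 3 lines were sorted for the GFP of the vector, so the control carried the vector too. In the rebastinib experiment, cells were given DMSO, 1 μM or 5 μM rebastinib (Reb), a kinase inhibitor, for 48 h. Each condition had 1 library, so no difference below has a replicate check, and the intervals given are 95% counting intervals (exact binomial), which cover counting error only. The libraries held 25838443 to 31955119 counts in the knockdown experiment and 37655548 to 50303269 in the rebastinib experiment. The targeted gene CDK16 had an RPKM (reads per kilobase of the gene, scaled to the depth of the library) of 19.1 with the scramble-shRNA, 6.52 with CDK16-sh1 and 4.72 with CDK16-sh2, and of 15.2, 14.3 and 11.4 at 0, 1 and 5 μM. VIM (177 to 833 RPKM) and CD44 (31.8 to 81.0 RPKM) were high in all 6 libraries, ERBB2 was at 2.56 to 6.54 RPKM, and ESR1, PGR and CDH1 were each under 0.2 RPKM.

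Histone mRNA of this type is made mainly in S phase, when newly copied DNA has to be packed into nucleosomes. It differs from other mRNA in that it ends in a conserved stem-loop in place of a poly(A) tail. The loop is bound by SLBP, and the end is cut with the help of the U7 small nuclear RNA. Some members also give longer transcripts that run past the loop and carry a poly(A) tail. The libraries were stranded mRNA libraries, and how mRNA was enriched is not given in the sources used here.

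The stem-loop is shown for 4 members whose counts the results below turn on, because it marks the end of the regular transcript and so separates it from the longer forms. It was searched in the GENCODE 29 transcripts of all 76 genes, and 34 genes held a match, all of them inside the interval over which the authors counted reads. The 16 bases of stem and loop are in capitals with 5 flanking bases on each side, 5′ to 3′, on GRCh38, in the 3′ untranslated part of each gene.
HIST1H2AC at chr6:26124664-26124689, plus strand: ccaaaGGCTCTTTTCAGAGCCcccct
HIST1H4I at chr6:27139649-27139674, plus strand: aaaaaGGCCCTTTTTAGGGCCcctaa
HIST2H2AA3 at chr1:149842218-149842243, minus strand: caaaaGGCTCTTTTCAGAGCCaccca
HIST2H2BE at chr1:149886183-149886208, minus strand: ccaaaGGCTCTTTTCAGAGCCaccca
The longest annotated transcript ran 1128 bases past the loop in HIST1H2AC, 212 in HIST1H4I and 1729 in HIST2H2BE, but only 35 in HIST2H2AA3. Over all members, 24 had a transcript with more than 100 bases after the loop. For 33 other members, including the most abundant ones HIST1H1C and HIST1H2BK, the counted interval was the coding sequence alone, so reads beyond it were not part of their counts.

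The promoters of these genes share short motifs that are textbook features of histone promoters. RefSeq promoters on GRCh38.p14 were matched for 65 of the 76 genes, and the 250 bases before the start were searched on both strands. CCAAT was found in 55 of 65 (84.6%) against 33.0% of all 27305 promoters, and it was in every one of the matched H1, H2A, H2B and H3 promoters but in 3 of 13 for H4. TATAAA was found in 43 (66.2%, against 11.1% of all promoters). ATTTGCAT, the octamer bound by POU2F1, was found in 26 (40.0%, against 1.66%), of which 14 were among the 18 H2B and 11 among the 16 H2A promoters. These promoters are not all separate stretches of DNA. Several H2A and H2B genes, such as HIST1H2AC and HIST1H2BC, lie head to head with nearly the same window, so the same motif counts for both. HIST1H2AD and HIST1H3D have an identical window, which holds the only octamer counted for H3. AAACACA, an H1 promoter element, was found in all 6 H1 promoters and in no other member (4.95% of all promoters). The 4 promoters below belong to HIST1H1C, the member with the most counts, to HIST1H3C and HIST2H2BE, which were higher at 5 μM by more than 2-fold, and to HIST1H2BK, the second most abundant member, which was not. The 4 motifs are in capitals.
HIST1H1C at chr6:26056471-26056720, minus strand: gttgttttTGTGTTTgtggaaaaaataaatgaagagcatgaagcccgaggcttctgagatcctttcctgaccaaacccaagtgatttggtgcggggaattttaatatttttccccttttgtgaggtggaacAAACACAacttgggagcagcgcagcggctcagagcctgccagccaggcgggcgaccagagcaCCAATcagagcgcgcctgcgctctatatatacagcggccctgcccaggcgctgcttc
HIST1H3C at chr6:26045134-26045383, plus strand: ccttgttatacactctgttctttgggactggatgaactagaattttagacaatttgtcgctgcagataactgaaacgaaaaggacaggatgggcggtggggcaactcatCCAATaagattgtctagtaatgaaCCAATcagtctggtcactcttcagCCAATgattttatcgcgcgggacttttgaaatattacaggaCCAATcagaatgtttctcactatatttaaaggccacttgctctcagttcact
HIST2H2BE at chr1:149886683-149886932, minus strand: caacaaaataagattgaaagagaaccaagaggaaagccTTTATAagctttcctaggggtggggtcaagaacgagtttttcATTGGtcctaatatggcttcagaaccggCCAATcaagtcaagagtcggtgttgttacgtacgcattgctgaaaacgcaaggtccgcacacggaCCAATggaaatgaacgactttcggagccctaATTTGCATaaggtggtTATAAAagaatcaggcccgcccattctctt
HIST1H2BK at chr6:27146859-27147108, minus strand: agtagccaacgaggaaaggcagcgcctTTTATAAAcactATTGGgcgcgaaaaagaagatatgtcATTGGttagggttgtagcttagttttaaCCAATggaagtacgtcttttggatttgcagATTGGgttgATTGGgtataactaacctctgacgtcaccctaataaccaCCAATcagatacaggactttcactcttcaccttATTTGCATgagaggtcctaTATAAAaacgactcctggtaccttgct
CCAAT or its reverse occurs once in HIST1H1C, 4 times in HIST1H3C, 3 times in HIST2H2BE and 6 times in HIST1H2BK. These matches are letters in a window and not measured binding sites, and promoters of genes on both sides of the 2-fold line hold them.

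Few members carried most of the histone counts. In the DMSO library, 43 of 62 members had a count and 17 had at least 50, and HIST1H1C, HIST1H2BK, HIST1H2AC and HIST1H4I together held 81.7% of all histone counts. In the scramble-shRNA library 46 of 76 members had a count and 12 had at least 50, and the same 4 genes held 79.3%. Per length, HIST1H1C was at 245 RPKM and HIST1H2BK at 174 RPKM in the DMSO library, against 26.0 RPKM for HIST1H2AC and 15.1 RPKM for HIST1H4I. HIST1H4C, an H4 gene of the HIST1 cluster, was at 0.0914 RPKM there, from 2 counts. The summed histone counts were 302 CPM of all counts (interval 295 to 309) in the scramble-shRNA library and 350 CPM (345 to 355) in the DMSO library. H1 held the largest part of them in both, and H3 the smallest.

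**Figure D1:**
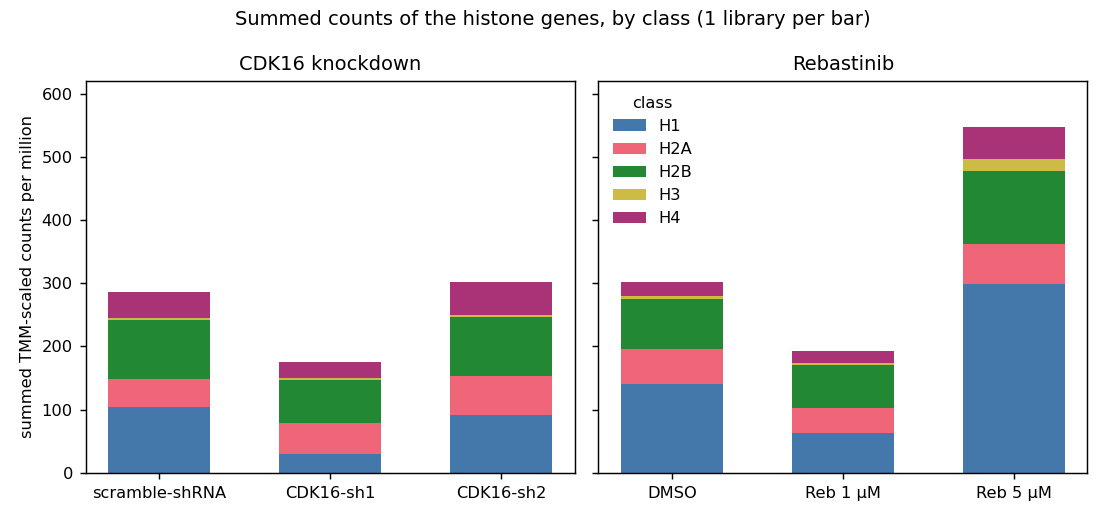
Summed counts of all histone genes in each of the 6 libraries, as CPM scaled by TMM (trimmed mean of M-values), stacked by histone class, with 1 library per bar. The sum was 287, 175 and 302 in the scramble-shRNA, CDK16-sh1 and CDK16-sh2 libraries, and 302, 192 and 546 at 0, 1 and 5 μM Reb.

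Summed over all members, which needs no filter, the histone counts were lower with CDK16-sh1 and nearly level with CDK16-sh2, and lower at 1 μM but higher at 5 μM Reb. The log2 ratio of the TMM-scaled sums was -0.71 for CDK16-sh1 (interval -0.76 to -0.67) and 0.08 for CDK16-sh2 (0.03 to 0.12). It was -0.65 at 1 μM (-0.68 to -0.62) and 0.85 at 5 μM (0.82 to 0.89). Without HIST1H1C these ratios were -0.32, 0.20, -0.34 and 0.64, and with library totals as well 2 of them turned, to -0.00061 with CDK16-sh2 and -0.046 at 5 μM. At 5 μM the scaling decides the size, since with library totals in place of TMM the median of all genes moved from -0.07 to -0.75 and the ratio of the histone sums from 0.85 to 0.16. With CDK16-sh2 the median of all genes moved from 0.02 to -0.18 and the ratio of the sums turned from 0.08 to -0.12.

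Low counts in the rebastinib table were mostly even. Of the genes with 1 to 20 counts, 65.1% to 68.7% had an even count in these 3 libraries, against 38.9% to 40.5% in the knockdown libraries. A count of 2 there may therefore be 1 fragment counted through both of its reads, so that the intervals for Reb are too narrow. For HIST1H4C and for the members under 1 CPM named below, the interval from halved counts is given as well.

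In the comparison of CDK16 knockdown with scramble, which asks what the loss of this kinase changes, 16 of the 76 members averaged 1 or more CPM (counts scaled to the depth of the library) over the 3 libraries and were compared one by one. With CDK16-sh1, 1 of the 16 was lower by at least 2-fold, against 6.86% of all genes tested, and none was higher, against 4.33%. With CDK16-sh2, 3 of the 16 were lower, against 7.62% of all genes, and none was higher, against 2.2%. Their median log2 fold change was -0.25 with CDK16-sh1 and -0.31 with CDK16-sh2, against -0.0018 and 0.02 for all genes. Both hairpins were set against the same scramble library. No H3 member reached 1 CPM in this experiment, and the 15 H3 genes together had 84, 125 and 71 counts.

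The linker histone gene HIST1H1C had 2787 counts with the scramble-shRNA, 902 with CDK16-sh1 and 2305 with CDK16-sh2. Against scramble this was -1.90 on the log2 scale for CDK16-sh1 (interval -2.01 to -1.80) and -0.17 for CDK16-sh2 (-0.25 to -0.09), so only the first hairpin passed 2-fold. HIST1H1E, the other H1 gene above 1 CPM, had 33, 73 and 30 counts and was higher with CDK16-sh1, by 0.83 (0.26 to 1.51) on the log2 scale. The 2 linker histone genes thus lay on opposite sides of the scramble library under CDK16-sh1.

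Among the core histones, HIST1H2BK had 1796, 1142 and 1911 counts and a log2 fold change of -0.93 with CDK16-sh1 and 0.20 with CDK16-sh2, the latter turning to the other side with library totals. HIST1H4I showed the same order, with 905, 564 and 1171 counts and log2 fold changes of -0.96 and 0.48. HIST1H2AC had 702, 722 and 1144 counts and was higher with CDK16-sh2 only, by 0.81 (0.67 to 0.95). On the TMM scale, CDK16-sh1 was the lowest and CDK16-sh2 the highest of the 3 libraries in each of these 3 abundant genes.

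HIST1H2BC, HIST2H2BE and HIST2H2BB were the 3 of the 16 members lower by at least 2-fold with CDK16-sh2. HIST1H2BC had 72, 68 and 15 counts (log2 fold change with CDK16-sh2 -2.03, interval -3.07 to -1.34). HIST2H2BE had 43, 86 and 16 counts (-1.23, -2.25 to -0.46) and was higher with CDK16-sh1, by 0.70 (0.18 to 1.29). HIST2H2BB, annotated as a transcribed pseudogene, had 74, 67 and 31 counts (-1.10, -1.80 to -0.53). All 3 are H2B members with under 100 counts in each library.

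The HIST2 cluster on chromosome 1 and the HIST1 cluster on chromosome 6 gave different sums. Summed over the 16 HIST2 genes the log2 ratio was 0.345 (0.22 to 0.47) with CDK16-sh1 and -0.52 (-0.68 to -0.36) with CDK16-sh2, and over the 55 HIST1 genes it was -0.91 (-0.97 to -0.86) and 0.135 (0.09 to 0.18). HIST2H2AA3, the main HIST2 gene, had 351, 651 and 245 counts, and its near copy HIST2H2AA4 had 111, 166 and 107. Every 100-base window of HIST2H2AA3 and 96.8% of those of HIST2H2AA4 also occur in another member, so how reads divide between them is uncertain. With library totals the HIST1 ratio with CDK16-sh2 was -0.06.

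With both hairpins pooled and set against scramble (quasi-likelihood test in edgeR, adjusted by Benjamini-Hochberg over 15295 genes), 0.0% of all genes were called, and no member. No member had an unadjusted p under 0.05, and DESeq2 called none either. This test takes the difference between the hairpins as its spread and has 1 control library. HIST1H4C, with 4, 11 and 7 counts, was under 1 CPM in all 3 libraries and its intervals spanned 0 with both hairpins.

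**Figure D2:**
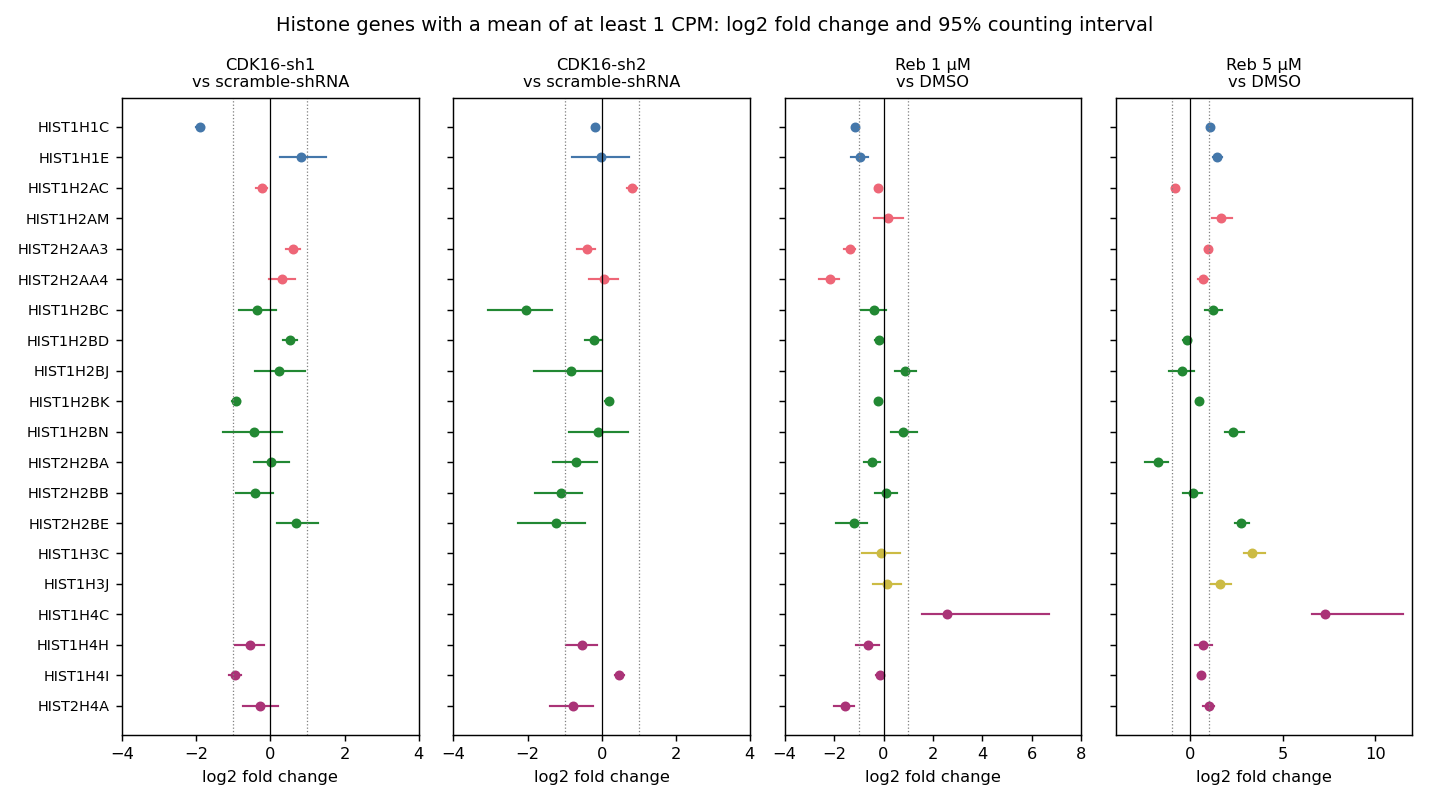
Log2 fold change of each treated library against its control (points, TMM-scaled CPM with a prior count of 2) for the members that averaged 1 CPM or more, with 95% counting intervals (lines), coloured by class from H1 at the top to H4 at the bottom; dotted lines mark 2-fold. HIST1H4C at 7.29 and HIST1H3C at 3.36 lie farthest to the right at 5 μM, and HIST2H2AA4 at -2.16 farthest to the left at 1 μM.

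Rebastinib was given at 2 doses to ask what the inhibitor changes, and the histone genes differed in direction between the doses. Of the 62 members, 20 averaged 1 CPM or more. At 1 μM, 5 of the 20 were lower by at least 2-fold, against 1.92% of all genes tested, and 1 was higher, against 1.28%. At 5 μM, 1 was lower, against 27.2% of all genes, and 10 were higher, against 23.6%. The median log2 fold change of the 20 was -0.22 at 1 μM and 0.97 at 5 μM, against 0.00 and -0.07 for all genes. With library totals the count at 5 μM was 3 lower and 4 higher, against 43.4% and 11.7% of all genes. Of the 20 members, 7 had fewer than 3 libraries at 1 CPM and some of these passed only through 1 high library. With at least 1 CPM required in the DMSO library instead, 17 members were compared. The pseudogene HIST2H3DP1 entered with this filter and was not among the 20. At 5 μM 6 of the 17 were higher, against 20.9% of all genes under this filter. HIST2H2BA and HIST2H3DP1 were the 2 that were lower, against 29.1%. At 1 μM 0 were higher, against 0.698%, and 5 were lower, against 2.34%.

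HIST1H4C had 2, 24 and 320 counts at 0, 1 and 5 μM, which is 0.0914, 1.12 and 19.5 RPKM. The scaled ratio to DMSO was 11.8 at 1 μM, with an interval from halved counts of 1.75 to 505, and 345 at 5 μM, the latter with a counting interval of 94.7 to 2860 that the 2 control counts set. On the log2 scale with the prior count the changes were 2.56 and 7.29, and the halved counts gave an interval of 5.93 to 13.7 for the second. It was the only one of the 20 members higher by at least 2-fold at 1 μM, and it passed the 1 CPM mean only through the 5 μM library.

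Of the 10 H3 members with a count in this table, 9 were above DMSO at 5 μM, against 15696 of all 32000 genes with a count. HIST2H3DP1 was below it, and 2 of the 10 averaged 1 CPM or more. HIST1H3C had 32, 30 and 163 counts at 0, 1 and 5 μM, with log2 fold changes of -0.11 and 3.36 (interval of the second 2.90 to 4.05). HIST1H3J had 52, 58 and 76 counts and a log2 fold change of 1.61 (1.13 to 2.19) at 5 μM, but 0.94 with library totals. Its interval overlaps HIST1H2AM on the same strand, whose counts of 48, 56 and 73 were nearly equal, so these 2 members may hold the same reads. Summed over the 11 H3 genes in this table, the counts were 248, 190 and 523, and the scaled sum was 4.55 times that of DMSO at 5 μM.

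The linker histone gene HIST1H1C had 7907, 3610 and 7738 counts at 0, 1 and 5 μM. On the log2 scale it was lower at 1 μM (-1.15, interval -1.21 to -1.10) and higher at 5 μM (1.08, interval 1.03 to 1.12), and 0.39 at 5 μM with library totals. HIST1H1E followed it with 235, 122 and 302 counts and log2 fold changes of -0.96 and 1.46. HIST1H1T, the testis linker histone gene, had 0, 4 and 28 counts, which is at least 20.1-fold higher at 5 μM against a floor of 3 counts in the DMSO library. From halved counts its interval at 5 μM started at 7.15-fold. All 6 H1 genes had a count at 5 μM, and 2 of them had one with DMSO. Of these 6, HIST1H1D had 4 counts over all 6 libraries, and HIST1H1A and HIST1H1B had no more than that. Counts this low may come from very few fragments.

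In the HIST2 cluster, 5 of the 6 genes above 1 CPM were below DMSO at 1 μM, against 7789 of all 15655 genes tested. By at least 2-fold, 4 of the 6 were lower, against 1.92% of all genes. Of these 4, HIST2H2AA3 and HIST2H2AA4 are near copies, and how reads divide between them is uncertain. HIST2H2AA3 had 646, 252 and 578 counts (log2 fold change -1.37 at 1 μM and 0.95 at 5 μM), and HIST2H2AA4 had 281, 62 and 211 (-2.16 and 0.69). HIST2H4A, which shares 94.9% of its 100-base windows with HIST2H4B, had 198, 67 and 185 counts (-1.55 and 1.00). HIST2H2BE, with a transcript that runs far past the loop, had 76, 32 and 246 counts (-1.21 and 2.76). These 4 genes and HIST1H1C were the 5 of the 20 members lower by at least 2-fold at 1 μM. Summed over the 16 HIST2 genes the log2 ratio was -1.19 (-1.31 to -1.06) at 1 μM, against -0.60 (-0.64 to -0.57) for the 43 HIST1 genes. Of the 14 HIST1 members tested, 1 was lower by at least 2-fold, against 1.92% of all genes.

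The H2A and H2B members above 1 CPM lay on both sides of DMSO at 5 μM, and all 4 H4 members above 1 CPM were above it on the TMM scale. HIST1H2AC had 2178, 1894 and 565 counts, with log2 fold changes of -0.22 and -0.84, and was the most abundant member that was lower at 5 μM. HIST1H2BK had 3331, 2903 and 2172 counts (-0.22 and 0.49) and HIST1H4I had 983, 899 and 676 (-0.15 and 0.57), both on the other side of DMSO at 5 μM with library totals. HIST1H2BD had 660, 588 and 271 counts (-0.19 and -0.18). HIST1H2BC had 79, 61 and 89 counts and was higher at 5 μM, by 1.25 (0.83 to 1.74). HIST1H2BN had 48, 86 and 116 counts (0.79 and 2.32), and its long interval covers HIST1H2AK and HIST1H2AL. HIST1H2BJ had 76, 143 and 26 counts (0.87 and -0.42), the largest increase at 1 μM among the 20 after HIST1H4C. HIST2H2BA, a transcribed pseudogene, had 191, 139 and 26 counts and was the only one of the 20 lower by at least 2-fold at 5 μM (-1.73, -2.42 to -1.17). HIST1H4H, an H4 gene with a long transcript, had 103, 67 and 79 counts (-0.63 and 0.71).

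Under 1 CPM, 31 members had more than 3 counts in at least 1 Reb library. At 1 μM the counting interval lay below DMSO for 9 of them and above it for 1, against 11.5% and 12.7% of all 11286 such genes. At 5 μM it lay above DMSO for 24 of the 31 and below it for 2, against 31.6% and 12.5%. From halved counts it lay below DMSO for 4 and above it for 0 at 1 μM, against 3.43% and 4.24% of these genes, and above it for 17 and below it for 1 at 5 μM, against 18.5% and 5.74%. Among them HIST1H3A had 4, 6 and 52 counts, a ratio of 28.0 (10.3 to 107, and 7.02 to 244 from halved counts) at 5 μM. HIST1H3B had 14, 3 and 60 counts, a ratio of 9.24 (5.10 to 17.9, halved 3.98 to 24.9). HIST1H2AG had 16, 8 and 88 counts, a ratio of 11.9 (6.91 to 21.6, halved 5.52 to 29.2). HIST1H2AK had 0, 3 and 42 counts, at least 30.2-fold higher against the floor of 3 counts, with an interval from halved counts that started at 11.2-fold, though it lies within HIST1H2BN on the other strand. HIST2H3DP1, a pseudogene, was the clearest exception with 81, 55 and 8 counts, a ratio of 0.213 (0.0889 to 0.440, halved 0.0547 to 0.581). The first 4 of these were chosen after their values were seen. The 40 members that had a count but did not reach 1 CPM in the Reb libraries summed to 398, 218 and 820 counts, a scaled log2 ratio of -0.89 (-1.14 to -0.65) and 2.15 (1.98 to 2.33).

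**Figure D3:**
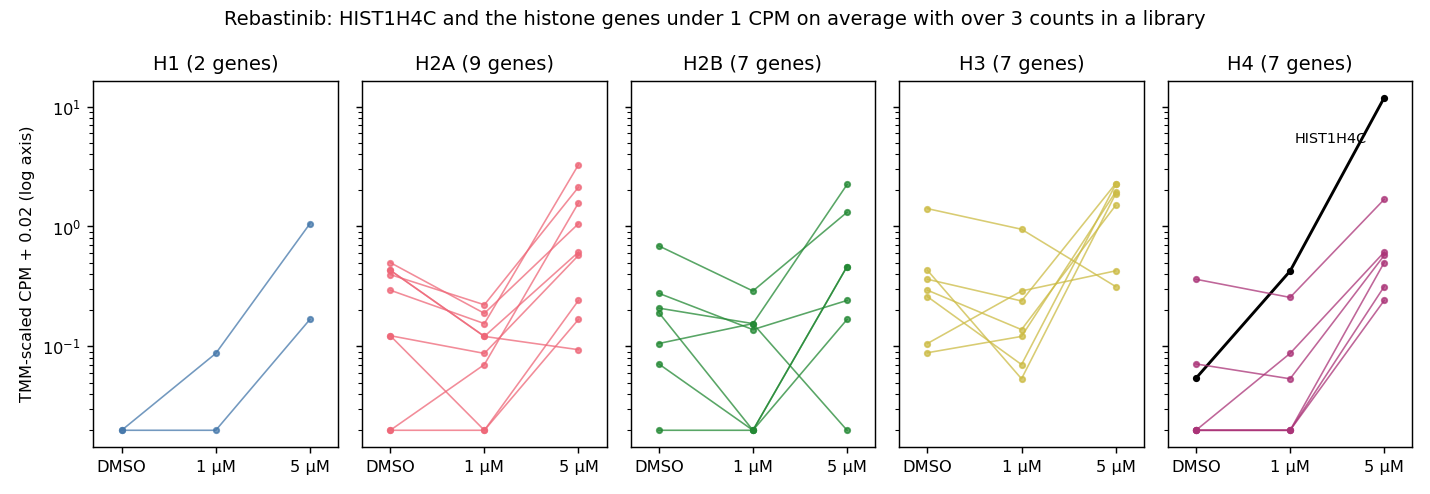
TMM-scaled CPM plus 0.02, on a log axis, in the DMSO, 1 μM and 5 μM libraries for HIST1H4C (black) and for the 31 members under 1 CPM with more than 3 counts in a library, by class. HIST1H4C reached 11.8 CPM at 5 μM, and 27 of the other 31 members were above DMSO there, while 19 were below it at 1 μM. Of all 32000 genes with a count, a wider set, 15696 were above DMSO at 5 μM and 14978 below it at 1 μM.

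By the form of the counted interval, the 49 short members with 1 exon of under 1000 bases and the 27 longer or multi-exon members gave different sums. In the rebastinib table these groups held 38 and 24 members. The short members had a log2 ratio of -0.997 and -0.04 with the 2 hairpins and of -0.84 and 1.03 at 1 and 5 μM, and the longer members of -0.27, 0.29, -0.24 and 0.27, the last of which turned to -0.42 with library totals. HIST1H1C and HIST1H2BK dominate the short group. The 33 members counted over the coding sequence alone (24 in the rebastinib table), without these 2, had a scaled log2 ratio of 0.68 (0.28 to 1.09), 0.21 (-0.25 to 0.67), -0.34 (-0.64 to -0.04) and 2.57 (2.34 to 2.80). The total counts behind the last were 212 with DMSO and 584 at 5 μM.

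With both doses pooled and set against DMSO by the same edgeR test, 0.0767% of 15655 genes were called, and no member. HIST1H4C had a log2 fold change of 7.37 in this edgeR fit and was higher in both treated libraries. DESeq2 called it, while edgeR did not, also without a filter or with library totals. It passed the 1 CPM mean only through the 5 μM library. With 1 CPM required in the DMSO library it would not be tested. With dose as a linear term on log2(dose + 1), edgeR called 13.3% of all genes higher and 4 members: HIST1H4C (adjusted p = 8.59e-09), HIST1H3C (0.00121), HIST2H2BE (0.00324) and HIST1H2BN (0.0319). Of these 4, all but HIST2H2BE were under 1 CPM with DMSO, so 3 of the calls would not be tested if 1 CPM were required there. This fit reads the departure of 3 libraries from a line as its spread and holds no replicate of any dose.

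In the list of histone transcription and 3′ processing, 9 of 26 genes above 1 CPM were lower by at least 2-fold at 5 μM, against 27.2% of all genes, and 5 were higher, against 23.6% (median -0.60). At 1 μM none passed 2-fold. SLBP, the stem-loop binding protein, had 3249, 4021 and 1364 counts (0.28 and -0.14), and with the hairpins it had 2476, 2033 and 1343 (-0.56 and -0.77). NPAT, which activates histone genes at their locus, had 892, 779 and 67 counts (-0.22 and -2.61). HINFP, an activator of H4 genes, had 1022, 647 and 287 counts (-0.68 and -0.72), and SYMPK, a scaffold of the cleavage complex, had 6549, 4285 and 692 (-0.64 and -2.13). ERI1 and LSM1, which act in histone mRNA decay, were higher at both doses, by 0.32 and 0.40 and by 0.33 and 0.45, but with library totals both were lower at 5 μM (-0.29 and -0.24). RNU7-1, the U7 RNA itself, had 23, 23 and 575 counts, a log2 fold change of 5.61 (5.15 to 6.42) at 5 μM, and with the hairpins 30, 42 and 13 counts. NPAT and RNU7-1 were named after their values were seen. In the knockdown, 2 of 25 genes of this list were lower and 1 higher by at least 2-fold with CDK16-sh1, and 1 was lower with CDK16-sh2, against 6.86%, 4.33% and 7.62% of all genes. There CASP8AP2, a histone-locus factor, had 560, 297 and 198 counts (-1.19 and -1.38), while MIF4GD, a partner of SLBP, was higher by 0.98 and 0.79 and HINFP by 0.62 and 0.33.

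DNA replication genes, which are used in the same phase of the cell cycle, were mostly lower at 5 μM. At 5 μM, 25 of 39 were lower by at least 2-fold, against 27.2% of all genes, and 1 was higher, against 23.6% (median -1.57), and at 1 μM none passed 2-fold (median 0.11). RRM2, a subunit of ribonucleotide reductase, had 7275, 5352 and 269 counts (-0.47 and -3.64), and MCM7, of the replicative helicase, had 9211, 6887 and 1947 (-0.44 and -1.13). GINS3 and ORC6, of the helicase and the origin complex, were higher at both doses, by 0.22 and 0.71 and by 0.29 and 0.51, but with library totals GINS3 was at 0.017 and ORC6 was lower at 5 μM (-0.18). With CDK16-sh1 1 of 39 and with CDK16-sh2 12 of 39 were lower by at least 2-fold, against 6.86% and 7.62% of all genes, and none was higher. CLSPN, a checkpoint mediator, had 4328, 2432 and 1404 counts (-1.11 and -1.52), and CCNE2, a cyclin of S phase entry, had 510, 324 and 142 (-0.93 and -1.73).

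Most replication-independent variants are also expressed outside S phase, from transcripts with a poly(A) tail. Of 10 above 1 CPM, all were below DMSO at 1 μM, against 7789 of all 15655 genes tested. By at least 2-fold, 2 were lower there, against 1.92% of all genes. At 5 μM 2 were lower and 1 higher by at least 2-fold, against 27.2% and 23.6% of all genes. None passed 2-fold with CDK16-sh1, and 2 were lower with CDK16-sh2, against 7.62% of all genes. H1F0, the linker histone of resting cells, was lower in all 4 treated libraries, with 27761, 9741 and 2405 counts under Reb (-1.53 and -2.42) and 12787, 8404 and 5908 with the hairpins (-0.88 and -1.01). H2AFX had 5697, 3272 and 1333 counts under Reb (-0.82 and -0.99), and H2AFV had 3028, 2634 and 2276 with the hairpins (-0.48 and -0.30). Among the 19 chaperones, 5 were lower and 3 higher by at least 2-fold at 5 μM, against 27.2% and 23.6% of all genes. None passed 2-fold at 1 μM, and 1 was lower with each hairpin, against 6.86% and 7.62% of all genes. ASF1B, which hands H3 and H4 to the replication fork, had 1142, 825 and 55 counts under Reb (-0.49 and -3.24) and 1785, 1648 and 1080 with the hairpins (-0.39 and -0.62). HJURP, the CENPA chaperone, had 8890, 6661 and 338 counts (-0.44 and -3.61), and HAT1, which acetylates new H4, had 2065, 2390 and 3429 (0.19 and 1.84). ATRX was higher at both doses, by 0.31 and 0.33, though at -0.36 at 5 μM with library totals, and lower with both hairpins, by -1.06 and -0.76 on the log2 scale. NAP1L4 and SSRP1 were higher with both hairpins, by 0.26 and 0.56 and by 0.22 and 0.62.

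Most listed small RNAs above 1 CPM, which carry no poly(A) tail, were also higher at 5 μM. Of 14 small RNAs above 1 CPM in the Reb libraries, 12 were higher by at least 2-fold at 5 μM, against 23.6% of all genes. None was lower there, and the median was 4.28. At 1 μM 1 was higher, against 1.28% of all genes, and none lower, against 1.92%. Of these 14, 7 were under 1 CPM with DMSO. Among the 7 that were not, 5 were higher by at least 2-fold at 5 μM, against 20.9% of all genes under this filter. None was lower, against 29.1%, and the median was 1.24. The summed counts of the listed small RNAs were 1924, 1900 and 13982, with RNU5A-1, of the spliceosome, at 4, 10 and 3855 and SNORD3A, of ribosomal RNA processing, at 30, 94 and 4514. In the knockdown, 3 of 6 were higher by at least 2-fold with CDK16-sh1, against 4.33% of all genes, and none with CDK16-sh2, against 2.2%. The medians were 0.81 and 0.07. With 1 CPM required in the scramble library, however, 3 of 8 were higher with CDK16-sh1, against 3.66% of all genes, and 1 lower, against 7.68%. The median was then -0.05. The summed counts were 535, 1065 and 461. Mitochondrial genes took 7.19%, 8.30% and 16.4% of all counts at 0, 1 and 5 μM and 11.3%, 10.4% and 16.2% in the knockdown libraries. The part of these shifts in the histone values at 5 μM was not tested. In bulk samples, fewer cells in S phase and less histone RNA in each cell cannot be told apart.

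**Figure D4:**
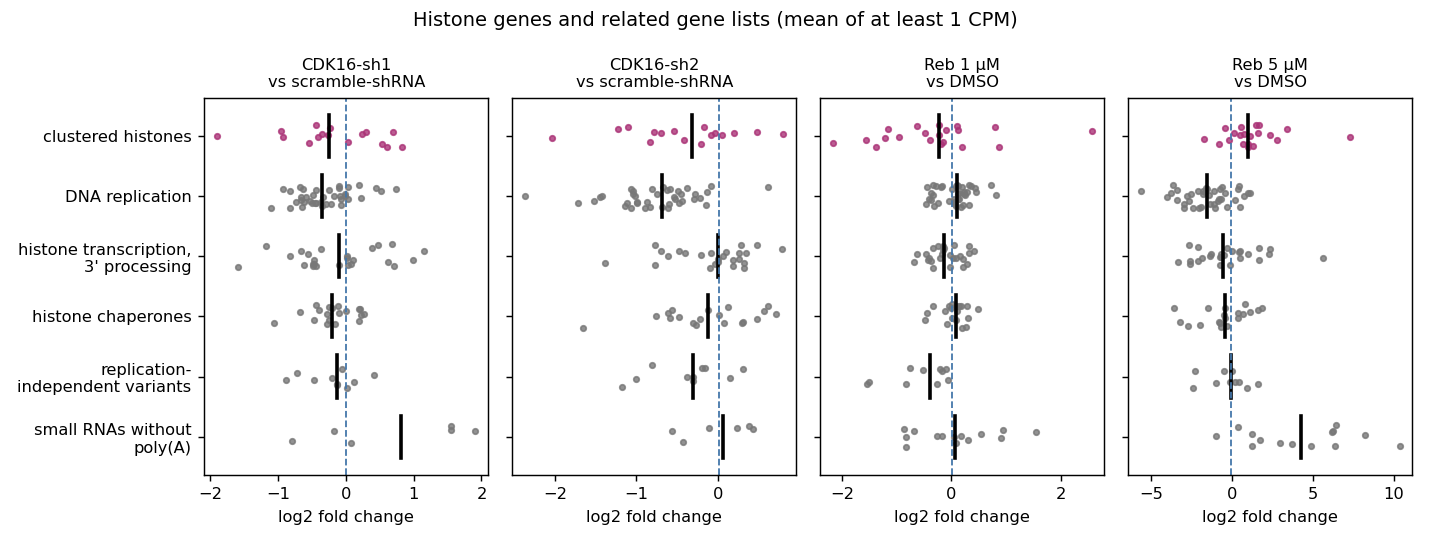
Log2 fold change of each treated library against its control for the histone genes (purple) and the genes of 5 related lists (grey), all averaging 1 CPM or more; black bars are medians and the dashed line is the median of all genes. At 5 μM the median was 0.97 for the histone genes, -1.57 for DNA replication and 4.28 for the small RNAs.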

How the data were processed

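RNA-seq was analysed from 6 MDA-MB-231 libraries, in 2 experiments of 3 conditions with 1 library each. Stranded mRNA libraries were sequenced by the authors on a HiSeq X 10 instrument. The submitters' processing notes name Trimmomatic, featureCounts, Subread 1.5.1 and GRCh38. The aligner, the annotation release and the strand setting are not given in the sources used here, so reads of genes that overlap on opposite strands may not be told apart. The deposited count tables hold the authors' whole-number read counts per gene, without normalization. In the deposited RPKM tables, these counts are divided by gene length and by library total.

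CPM values were scaled by TMM (edgeR 4.0.16, R 4.3.3), and treated libraries were compared with their control as log2 fold changes, with a prior count of 2 and a limit of 2-fold, for genes that averaged 1 CPM or more. Fold changes on this scale understate the change of genes with few counts. The histone counts were also summed without a filter. Intervals are exact binomial (Clopper-Pearson) at 95%, and a gene at 0 in the control was set against a floor of 3 counts. Both treated libraries together were tested against the control with edgeR's quasi-likelihood test (adjusted p of at most 0.05 and at least 2-fold), with DESeq2 1.42.0 and a linear dose term as alternatives. The fits were tested on simulated data. Nothing says that libraries came from separate cultures.

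The members and lists were chosen with earlier results of these data known. Named were HIST1H4C, CDK16, the 4 members of each class with most counts, the 3 largest increases and decreases per treated library above 1 CPM, and from each list up to 2 genes each way that moved alike in both treated libraries above 5 CPM. Members named outside this rule are marked in the text. Stem-loops came from GENCODE 29 transcripts and promoters from RefSeq. Protein sequences were not used here. No promoter entry was matched for HIST2H2BA, HIST2H3DP1, HIST2H2BB, HIST2H2BD, HIST2H2BC, HIST3H2BA, HIST1H4A, HIST1H4C, HIST1H2AH, HIST1H3I and HIST1H3J.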

Additional observations from a re-analysis of the deposited data

Results flagged for a closer look

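In 3 of the 20 members that averaged 1 CPM or more, the 2 doses of Reb lay on opposite sides of the same DMSO library, each by at least 2-fold. HIST1H1C had a log2 fold change of -1.15 at 1 μM and 1.08 at 5 μM. HIST2H2BE had -1.21 and 2.76, and HIST2H4A had -1.55 and 1.00. Of all genes tested, 1.92% were lower at 1 μM and 23.6% were higher at 5 μM by at least 2-fold. The share of all genes that did both was not counted. With 1 library per dose, the difference between the doses was not tested. Without a filter, 5 further members with low counts also lay on opposite sides: HIST1H2AI, HIST1H2BL, HIST1H3B, HIST2H2BD and HIST2H3A. From halved counts, only HIST2H3A of these 5 had a ratio interval clear of 1 at both doses (0.00192 to 0.554 and 2.17 to 9.81). For HIST1H2BL at 5 μM it was 0.156 to 29.7. There 7.03% of all genes were lower at 1 μM and 28.3% higher at 5 μM. With library totals in place of TMM the values at 5 μM were 0.39, 2.08 and 0.32.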

How the results depend on the processing

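No paired analysis was possible because each condition had 1 library, and for the same reason no library could be left out. Without a filter, 3 members were higher by at least 2-fold with CDK16-sh1 and the median was 0.34, on the other side of 0, 10 were lower and 4 higher with CDK16-sh2, 14 lower and 5 higher at 1 μM, and 4 lower and 42 higher at 5 μM, where the median was 1.48. These counts include genes at a few counts, for 56 and 60 members compared, and the shares of all genes lower and higher under this setting were 8.64% and 7.24% with CDK16-sh1, 10.4% and 6.15% with CDK16-sh2, 7.03% and 7.62% at 1 μM and 23.1% and 28.3% at 5 μM. With a mean of at least 5 CPM, which leaves 6 and 7 members, 0 were lower with CDK16-sh2, 2 lower and 0 higher at 1 μM, and 0 lower and 2 higher at 5 μM, where 25.2% and 24.0% of all genes were (1.07% and 0.368% at 1 μM, and 6.08% lower with CDK16-sh2). With at least 1 CPM in the control library, an alternative chosen after seeing the data, 0 were higher at 1 μM, against 0.698% of all genes, and 2 lower and 6 higher at 5 μM, against 29.1% and 20.9%. With library totals, and likewise with RPKM plus 0.1, 3 were lower and 4 higher at 5 μM, with medians of 0.29 and 0.28. Of all genes, 43.4% were lower and 11.7% higher there with library totals, and 41.5% and 11.1% with RPKM plus 0.1. Halved counts, also chosen after seeing the data, changed none of the counts past 2-fold at either dose.

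The log2 ratio of the summed counts with library totals was -0.12 with CDK16-sh2, a turned direction, -0.60 at 1 μM and 0.16 at 5 μM, and with DESeq2 size factors it was 0.92 at 5 μM. Without HIST1H1C, the most abundant member, it was -0.32, 0.20, -0.34 and 0.64 for the 4 treated libraries in the order of the report, and over the short members with 1 exon it was -0.997, -0.0397, which also turned, -0.84 and 1.03. With both doses as 1 group DESeq2 called HIST1H4C and edgeR did not. HIST1H4C passed the 1 CPM mean only through the 5 μM library. The linear dose term called 4 members. The cause of these shifts was not tested beyond what each alternative leaves out. Low counts limit H3 most, whose genes together had 71 to 125 counts per knockdown library, and the reason for these low counts was not tested.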
